A study of Homo sapiens with 3 samples.

Results

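H3K4me3 peaks that carried no H3K27ac were examined in KBM7, a human line of chronic myeloid leukaemia. They are the intervals of the H3K4me3 peak list on chromosomes 1 to 22 and X that share not even 1 bp with any interval of the H3K27ac peak list. There were 5972 of them among 36951 H3K4me3 peaks (16.2%, 95% Wilson interval 15.8 to 16.5), and the other 30979 H3K4me3 peaks overlapped H3K27ac. The series holds 3 libraries of wild-type KBM7 cells grown in IMDM with serum and antibiotics, and the cells received no treatment that the labels name. One library was precipitated with an antibody against H3K4me3 (Millipore 07-473), one with an antibody against H3K27ac (Abcam ab4729), and one is input DNA. Shearing was by probe sonicator and the library kit was Rubicon ThruPLEX. With a single library per mark, no value below has a replicate error, no test between samples was possible, and all intervals cover counting error only. The members were chosen by the positions of the called peaks of both marks and are split on the authors' H3K4me3 fold. Lack of overlap and fold are thus descriptions and not findings. Width is a description too, because a wider interval more readily touches one of H3K27ac.

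H3K4me3 is placed on promoters by the SET1 and MLL methyltransferases, which reach chromatin in part through subunits that bind unmethylated CpG. It is found at active promoters, and in many cell types also at CpG-rich promoters of genes that are hardly transcribed. H3K27ac is placed by the acetyltransferases p300 and CBP at active promoters and enhancers. The same lysine can instead be trimethylated by Polycomb repressive complex PRC2, which happens in stem cells at many genes of development that also hold H3K4me3. H3K27me3, RNA and accessibility were not analysed here, so lack of H3K27ac describes a peak and not the activity of its gene.

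Promoters of 5 of these genes are printed first, because their density of CG dinucleotides is the sequence feature that the results below turn on. Each line gives 250 bases before and 50 bases after a start listed by RefSeq (GRCh38.p14), 5′ to 3′ on the strand of the gene, with every CG in capitals. GALNT16, CD24 and SPTB are the genes of highest H3K4me3 fold without H3K27ac that have an entry with its start inside the peak, and POU3F2 and NLGN1 were taken by the same rule from the developmental factor list and the neuronal list. RNF152, EMX1 and NR2F2 are named without a sequence.
GALNT16 (chr14:69259908-69260207, plus strand, 37 CG, observed over expected ratio 0.970): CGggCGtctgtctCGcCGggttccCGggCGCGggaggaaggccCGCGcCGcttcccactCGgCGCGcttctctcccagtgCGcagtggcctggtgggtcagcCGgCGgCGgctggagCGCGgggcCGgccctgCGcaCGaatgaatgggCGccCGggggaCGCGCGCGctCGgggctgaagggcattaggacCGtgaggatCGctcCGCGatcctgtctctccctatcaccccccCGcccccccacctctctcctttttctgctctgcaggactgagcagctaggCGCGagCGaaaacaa
CD24 (chr6:106975416-106975715, minus strand, 36 CG, ratio 0.885): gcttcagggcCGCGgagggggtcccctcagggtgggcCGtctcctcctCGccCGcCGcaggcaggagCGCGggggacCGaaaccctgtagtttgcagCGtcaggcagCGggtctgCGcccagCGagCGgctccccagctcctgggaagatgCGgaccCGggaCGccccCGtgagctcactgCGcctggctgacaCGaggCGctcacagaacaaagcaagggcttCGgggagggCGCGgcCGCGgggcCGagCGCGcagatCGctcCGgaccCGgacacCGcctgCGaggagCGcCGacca
SPTB (chr14:64879858-64880157, minus strand, 28 CG, ratio 0.694): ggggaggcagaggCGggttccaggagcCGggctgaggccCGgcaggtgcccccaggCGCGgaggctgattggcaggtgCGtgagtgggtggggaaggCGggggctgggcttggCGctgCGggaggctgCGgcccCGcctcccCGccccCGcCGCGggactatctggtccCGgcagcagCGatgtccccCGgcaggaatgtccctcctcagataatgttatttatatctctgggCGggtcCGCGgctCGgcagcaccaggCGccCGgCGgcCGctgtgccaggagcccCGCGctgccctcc
POU3F2 (chr6:98834324-98834623, plus strand, 24 CG, ratio 0.836): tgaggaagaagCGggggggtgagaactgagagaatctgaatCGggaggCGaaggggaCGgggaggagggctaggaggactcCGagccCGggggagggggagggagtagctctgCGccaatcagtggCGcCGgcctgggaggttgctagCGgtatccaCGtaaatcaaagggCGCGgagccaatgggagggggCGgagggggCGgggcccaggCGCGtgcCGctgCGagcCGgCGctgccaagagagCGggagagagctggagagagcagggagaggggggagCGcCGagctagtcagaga
NLGN1 (chr3:173397494-173397793, plus strand, 28 CG, ratio 0.820): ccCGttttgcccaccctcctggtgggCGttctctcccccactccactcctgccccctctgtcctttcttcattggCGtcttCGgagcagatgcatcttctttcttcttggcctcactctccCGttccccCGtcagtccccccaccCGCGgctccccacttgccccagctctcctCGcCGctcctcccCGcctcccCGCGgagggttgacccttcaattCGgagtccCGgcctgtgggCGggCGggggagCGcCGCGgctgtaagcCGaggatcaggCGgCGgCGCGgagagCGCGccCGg

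For contrast, SMIM33 and CD79A show starts that held both marks with a moderate H3K4me3 peak. They are the genes of highest H3K27ac fold among starts with both marks and an H3K4me3 fold of 10 to 20, and were chosen after values were seen. The promoters printed before them had higher H3K4me3 folds, of 42.97 to 72.9, so the contrast differs in fold as well as in H3K27ac. The median ratio at folds of 40 to 60 was 0.838 with H3K4me3 only and 0.830 with both marks. It was 0.768 and 0.863 at 60 or more, and 0.741 and 0.313 at 10 to 20. The contrast thus holds for moderate peaks and not for folds like those of the earlier promoters. CG is again in capitals. CD79A encodes a part of the B cell receptor.
SMIM33 (chr5:139470754-139471053, plus strand, 8 CG, ratio 0.323, H3K4me3 fold 13.2, H3K27ac fold 44.0): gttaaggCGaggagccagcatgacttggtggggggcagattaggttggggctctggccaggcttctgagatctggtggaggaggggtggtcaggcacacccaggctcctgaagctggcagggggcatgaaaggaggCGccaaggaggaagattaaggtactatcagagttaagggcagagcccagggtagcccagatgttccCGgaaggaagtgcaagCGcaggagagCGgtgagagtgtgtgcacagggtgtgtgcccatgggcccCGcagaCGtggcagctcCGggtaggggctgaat
CD79A (chr19:41877029-41877328, plus strand, 4 CG, ratio 0.134, H3K4me3 fold 17.8, H3K27ac fold 43.7): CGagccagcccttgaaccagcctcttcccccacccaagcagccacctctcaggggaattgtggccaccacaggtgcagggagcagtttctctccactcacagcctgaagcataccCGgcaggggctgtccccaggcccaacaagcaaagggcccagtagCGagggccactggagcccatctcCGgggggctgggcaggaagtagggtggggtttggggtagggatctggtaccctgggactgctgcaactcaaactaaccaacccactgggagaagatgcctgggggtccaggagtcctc

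The fold given for a peak is the authors' own ratio, at the summit of the peak, of piled-up fragments to an expected background. It was used to describe and rank peaks within 1 list. Fold and p-value together gave back the whole number of fragments at each summit in 100% of the rows of both lists. H3K4me3 summits held a median of 39 fragments (at most 345) and H3K27ac summits a median of 21. The fewest fragments at an H3K27ac summit of the list were 9, the median expected background over the list was 3.63, and fainter acetylation would not appear in it. A peak without H3K27ac is thus one where no H3K27ac peak was called at a q of 0.05. All 12 genes picked for myeloid and progenitor identity carried both marks, among them CD34, KIT, GATA2, SPI1, RUNX1 and MPO. Both marks were at 61.0% of all protein-coding genes. In wider lists they were at 33 of 41 haematopoietic transcription factors but at 15 of 40 granulocyte and monocyte genes. Of those 40 genes 19 had neither mark.

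The rule splits the members at a fold of 10. There were 1902 strong members, of 18615 H3K4me3 peaks with a fold of 10 or more (10.2%, 9.79 to 10.7). There were 4070 weak members, of 18336 peaks with a lower fold (22.2%, 21.6 to 22.8). Weak members made up most of the set, and the strong ones were 31.8% of it. The share without H3K27ac was between 20.2% and 24.2% in every bin of fold up to 40. It was 6.93% (320 of 4619) at folds of 40 to 60 and 0.436% (31 of 7113) at 60 or more. Around the split, members with folds of 9.97 lay at ROR2, a receptor of WNT ligands, and at LINC02299, and one of fold 9.999 inside PPP4R3B-DT fell just below it. Just above it lay 3 members of fold 10.03, at MMD, BTG1 and the pseudogene CHORDC1P1.

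**Figure D1:**
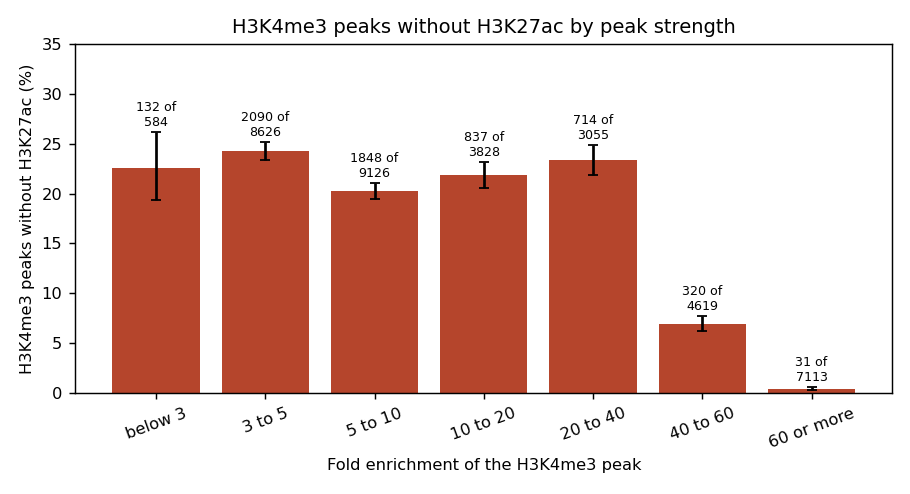
Share of H3K4me3 peaks without H3K27ac (vertical axis, percent) in 7 bins of H3K4me3 fold enrichment (horizontal axis); bars start at 0, whiskers are 95% Wilson intervals, and the counts stand above the bars. The 5 bins below a fold of 40 lie between 20.2% and 24.2%, and the bins from 40 to 60 and from 60 up lie at 6.93% and 0.436%.

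Most strong members lay far from H3K27ac and were narrower than strong peaks that overlapped it. Their median fold was 22.5 (interquartile range 14.4 to 35.2, highest 73.2) and their summits held a median of 77 fragments (48 to 121, at most 288). Their median width was 1004 bp, and the widest spanned 3821 bp. Strong peaks with H3K27ac had a median fold of 55.0, 235 fragments and a width of 2182 bp. Between folds of 20 and 40 the median width was 1144.5 bp without and 1406 bp with H3K27ac, and between 40 and 60 it was 1562 and 2309 bp. The smaller width follows in part from the rule, also at like fold, because a narrow interval has less room to touch H3K27ac. The nearest H3K27ac peak lay a median of 49442 bp from a strong member (interquartile range 15392 to 133250). Only 5.52% of strong members had H3K27ac within 1 kb, 81.8% were more than 10 kb from it, and 608 (32.0%) were more than 100 kb from it.

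**Figure D2:**
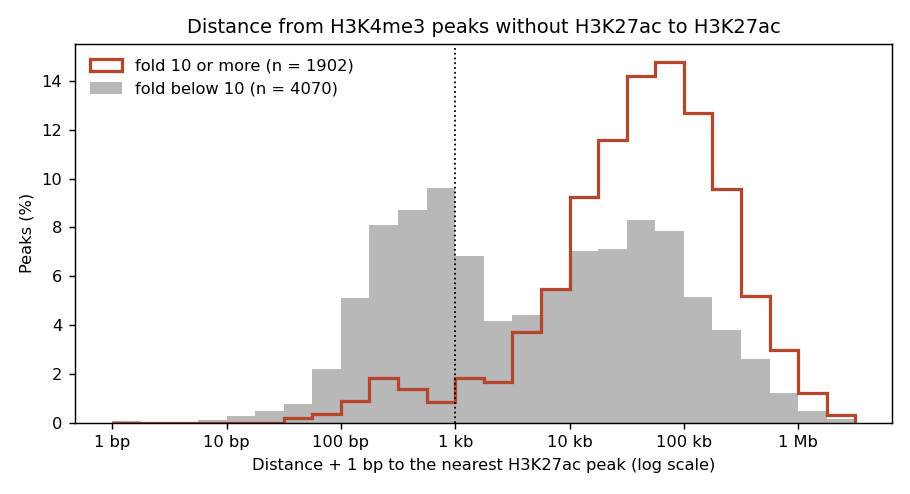
Distance from each H3K4me3 peak without H3K27ac to the nearest H3K27ac peak (horizontal axis, log scale, 1 bp added) for strong members (line, fold 10 or more) and weak members (grey area), as the percent of each group (vertical axis). The dotted line marks 1 kb; 5.52% of strong and 35.6% of weak members lie left of it.

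Most strong members marked a gene end. Of the 1902, 1236 lay within 1 kb of the end of a RefSeq gene record (65.0%, 62.8 to 67.1), against 74.4% (73.7 to 75.0) of strong peaks with H3K27ac. The places that follow also count listed starts inside a gene record, which are not ends of the record, so they do not add up to the 1236. By place, 821 (43.2%) were at a listed start of a protein-coding gene, against 58.4% of strong peaks with H3K27ac. A further 316 (16.6% against 13.1%) were at another end of a protein-coding record, which can be a start that the table of starts does not list. Starts of long non-coding RNA genes took 99 (5.21% against 3.43%) and ends of other gene records 119 (6.26% against 4.46%). Inside genes and away from ends and listed starts lay 277 (14.6% against 13.1%), and outside genes 270 (14.2% against 7.43%). These totals mix folds, and members had the lower folds. Within bins of fold, examined after the totals were seen, members of fold 10 to 20 were at a gene end in 53.0% of cases (49.7 to 56.4), against 29.2% (27.6 to 30.8) of peaks with H3K27ac. At 20 to 40 it was 70.0% (66.6 to 73.3) against 59.1% (57.1 to 61.1), at 40 to 60 it was 82.5% against 84.9%, and at 60 or more 90.3% against 92.1%. Protein-coding starts gave 30.3% against 12.3% at 10 to 20, 47.5% against 36.1% at 20 to 40 and 64.4% against 64.5% at 40 to 60. Outside genes lay 21.9% against 22.4% at 10 to 20 and 10.1% against 14.9% at 20 to 40. At like fold below 40, members were thus more often at gene ends than peaks with H3K27ac, the opposite of the totals, and above 40 the intervals overlapped.

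The 20 members of highest fold at protein-coding genes without H3K27ac at either end are given in order of fold. At RNF152, an E3 ubiquitin ligase of lysosomes, the peak (chr18:61892895-61894947) had a fold of 73.2 with 213 fragments (exact Poisson interval 185 to 244), and the nearest H3K27ac peak was 77554 bp away. At GALNT16, an enzyme that starts mucin-type O-glycosylation (chr14:69259306-69261812), it had a fold of 72.9 with 212 fragments and H3K27ac 67032 bp away. CD24, a surface glycoprotein of B cells and granulocytes with close copies elsewhere in the genome, had a fold of 72.2 with 210 fragments. SPTB, the beta-spectrin of the red cell membrane, had a fold of 70.8 with 210 fragments. These 4 summits do not differ beyond counting error.

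The next of these genes in order were DPF3, a subunit of a SWI/SNF-type remodelling complex (69.5), ELMOD1 (68.6) and XKR7 (68.2). They were followed by LOC124902807 together with the microRNA gene MIR129-2 (67.4), ACSL6, an acyl-CoA synthetase of brain and blood (66.9), and MSRB3, a methionine sulfoxide reductase (65.9). REEP1, which shapes the endoplasmic reticulum, and TENM3, a teneurin of synaptic adhesion, both had a fold of 65.7. INSM2, a zinc finger factor, had 65.0 and SLC4A4, a sodium bicarbonate cotransporter, had 64.6. EGR4, KLF14, NEK10, SESN3, WNT4 and the integrin gene ITGB5 had folds of 62.3 to 64.0. Over these 20 peaks the fragments ranged from 181 to 226, and the distance to H3K27ac ranged from 6837 bp at EGR4 to 356891 bp at TENM3. The values of these 20 were close together: each was within the counting interval of several others.

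**Figure D3:**
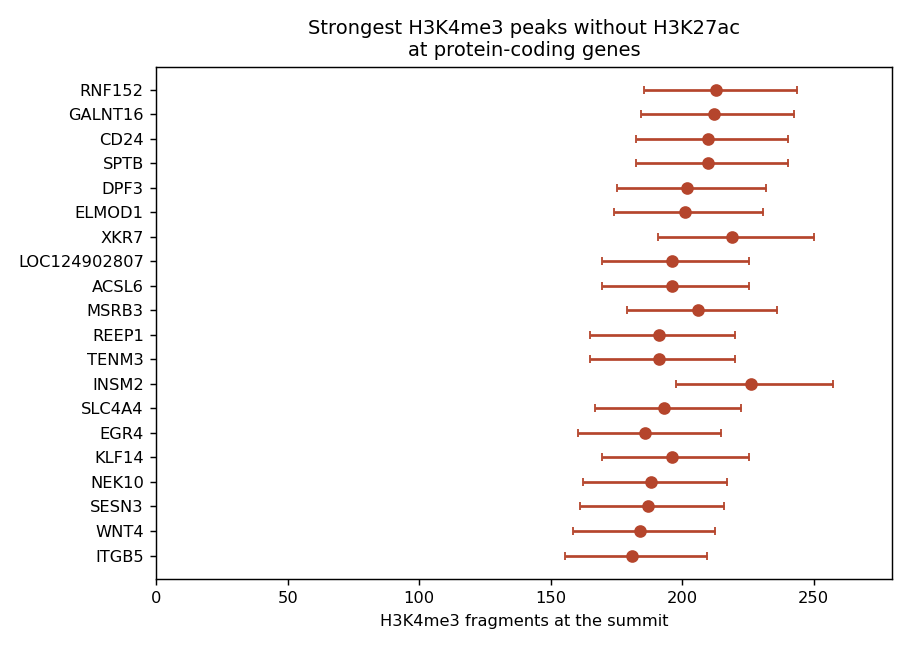
H3K4me3 fragments at the summit (horizontal axis) of the 20 strongest peaks without H3K27ac at protein-coding genes, ordered by fold from the top; bars are exact 95% Poisson intervals, which cover counting error only. The 20 summits lie between 181 and 226 fragments, and all their intervals overlap.

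Among the 10 widest members, 8 lay at ends of protein-coding genes. The peak at PPARGC1A, a coactivator of mitochondrial biogenesis, spanned 3821 bp with a fold of 35.8. HEY2, a Notch target of heart development, had 3634 bp (fold 49.2), CASZ1, a zinc finger factor, 3488 bp (33.2), and NGFR, the low-affinity neurotrophin receptor, 3247 bp (36.7). DACH1, a transcriptional cofactor, had 3179 bp (42.8) and POU3F2, a POU factor of neurons, 3111 bp (42.97). EGLN3, an oxygen-sensing prolyl hydroxylase, had 3096 bp (39.6). PCDH7, a protocadherin, had a wide but low peak of 3010 bp and fold 13.5, with no H3K27ac within 1309474 bp. The remaining 2 of the 10 widest lay inside SOX6 (3358 bp, fold 48.6) and outside genes on chromosome 2 (3159 bp, fold 22.6).

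Some strong members were far from every gene end. There were 264 of them more than 10 kb from one (13.9%), against 10.8% of strong peaks with H3K27ac, again without matching on fold. Outside genes the highest were chr6:90610428-90611840 with a fold of 57.2, chr4:185127552-185129053 with 46.9 and chr2:94272592-94273759 with 45.1. A site on chromosome 7 (chr7:128166624-128168173) had 44.8 and one on chromosome 1 (chr1:90729778-90731091) had 40.5. Inside genes and more than 10 kb from an end of the record the highest were in TENM3 (65.7), EIF4E3 (63.4), ITGB5 (62.3), RORA (59.6) and SH3BGRL2 (57.8). Those in TENM3, ITGB5 and SH3BGRL2 lay at a start listed within the gene. EIF4E3 encodes a cap-binding protein and RORA a nuclear receptor.

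Non-coding genes held strong members as well. At an end of non-coding records alone, with no protein-coding end within 1 kb, lay 213 strong members. The highest were at DGCR5, a long non-coding RNA of the DiGeorge region of chromosome 22 (fold 68.1), at LINC00612 with A2M-AS1 (63.6), LOC102723842 (57.8), LOC124904553 (55.4) and the pseudogene RHOXF1P3 (53.6). Ends of long non-coding RNA records were as frequent among strong members (406, 21.3%) as among all strong H3K4me3 peaks (21.9%). Ends of transfer RNA genes, which RNA polymerase III transcribes, were rarer, with 4 strong members (0.210%) against 0.854% of all strong peaks.

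MicroRNA gene ends lay at 18 strong members (0.946%), against 1.55% of all strong H3K4me3 peaks. Mature sequences from RefSeq (GRCh38.p14) are shown for 4 products of these genes, picked for their known roles after the values were seen, 5′ to 3′ and with the seed, bases 2 to 8, in capitals, because the seed decides which transcripts a microRNA pairs with. No seed is shared among the 4.
hsa-miR-129-5p: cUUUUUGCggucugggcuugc
hsa-miR-137-3p: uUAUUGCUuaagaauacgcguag
hsa-miR-203a-3p: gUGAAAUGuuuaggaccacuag
hsa-miR-9-5p: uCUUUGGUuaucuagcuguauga

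MIR129-2 lay at a peak of fold 67.4 (196 fragments) and at another of fold 28.6 (94 fragments). MIR137, a regulator of neuronal maturation, shared a peak of fold 50.9 (149 fragments, 1644 bp) with MIR2682, with H3K27ac 102412 bp away. MIR203A, a microRNA of epidermal differentiation, shared one of fold 46.5 (135 fragments) with MIR203B at ASPG. The abundant brain microRNA miR-9-5p is encoded by several genes, of which MIR9-1 had a fold of 27.1 (92 fragments) and MIR9-2 a fold of 14.4 (85 fragments). The mature sequence does not tell these copies apart, whereas the peaks lie on different chromosomes. The marks say nothing of whether any of these microRNAs was made.

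Some strong members lay close together. The 1-Mb bin with the most was chr2:176000001-177000000, with 9 of its 15 strong H3K4me3 peaks, at HOXD1, HOXD8, HOXD9, HOXD11, HOXD13 and neighbouring long non-coding RNA genes, at folds of 13.2 to 36.5. The next, with 8 of 13, was chr5:88000001-89000000, at MIR9-2 and its host MIR9-2HG and at MEF2C-AS2. Several bins held 7. One on chromosome 1 had 7 of 25 strong peaks without H3K27ac, at HES2, HES3, ESPN, GPR153 and PLEKHG5. One on chromosome 17 had 7 of 27, at HOXB8, HOXB9, COPZ2, TTLL6 and non-coding genes. Another on chromosome 2 had 7 of 26, at WNT6, WNT10A, FEV and CDK5R2, and one on chromosome 19 had 7 of 46, at DKKL1, LHB, NTF4, SAXO3 and SLC17A7. A bin on chromosome 1 with 6, chr1:144000001-145000000, at NBPF15 and small nuclear RNA genes, held no other strong H3K4me3 peak. By chromosome, the share of strong peaks without H3K27ac ranged from 5.83% on chromosome 19 to 15.7% on chromosome 4.

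Weak members were narrow and often close to other peaks. Their median fold was 4.79, their width 279 bp and their summit 16 fragments (interquartile range 13 to 21). Weak peaks with H3K27ac had a median fold of 5.07, a width of 368 bp and 19 fragments. The nearest H3K27ac peak was a median of 5173 bp from a weak member, and 1448 (35.6%) had one within 1 kb. Another H3K4me3 peak lay within 1 kb of 1948 of them (47.9%), which was less often than for weak peaks with H3K27ac (53.9%). The median distance to another H3K4me3 peak was 1784 bp for weak members and 537.5 bp for weak peaks with H3K27ac. For 1400 weak members (34.4%) such a neighbour itself overlapped H3K27ac. Together 2141 (52.6%) bordered either mark, and 1929 (47.4%) stood apart from both. Those apart had a median fold of 5.33 and lay at a gene end in 28.0% of cases, and those that bordered a mark had 4.41 and 21.4%.

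Most weak members lay in gene bodies. Inside genes and away from ends and listed starts were 2122 (52.1%, against 60.2% of weak peaks with H3K27ac), and outside genes 833 (20.5% against 24.3%). At any gene end were 998 (24.5%, 23.2 to 25.9, against 13.7%, 13.2 to 14.3). Listed protein-coding starts took 467 (11.5% against 3.96%), so weak members were more often at starts than weak peaks with H3K27ac, as members of fold 10 to 40 were. The members nearest to H3K27ac were 3 weak ones inside ANKRD11, RIOK1 and SLC25A43, which touched an H3K27ac interval without sharing a base. On the other side of the rule, the 3 H3K4me3 peaks of smallest overlap shared 2 bp with H3K27ac. Of the 4070 weak members 1146 had a −log10 q of 10 or more, and the other ones had less.

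Members rarely overlapped the super-enhancers, the long H3K27ac regions that the authors tabulated. Of strong members 1 of 1902 (0.0526%) overlapped such a region and of weak members 14 of 4070 (0.344%), against 6.69% of strong and 17.4% of weak peaks with H3K27ac. Because super-enhancers are built from H3K27ac peaks, this follows in part from the rule and is given as a description.

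At the level of genes, 1323 of 19974 protein-coding genes (6.62%, 6.29 to 6.98) had H3K4me3 and no H3K27ac within 1 kb of a start. For 15812 genes the starts were those of the promoter table, and for 4162 genes without an entry both ends of the record were used. Both marks were at 12189 genes (61.0%), H3K27ac alone at 420 (2.10%) and neither at 6042 (30.2%). Of the 1323 genes 978 had a fold of 10 or more (4.90% of all genes). The median fold was 22.6 at genes with H3K4me3 only and 64.7 at genes with both marks. At 25 of the 1323 the strongest peak did overlap H3K27ac, but outside the window. Of 1108 genes that had an H3K4me3-only start in the promoter table, 106 had H3K27ac at another of their starts.

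H3K4me3 only was most frequent in the lists of neuronal and developmental genes. It was found at none of the housekeeping, hepatocyte, granulocyte and monocyte genes listed, with intervals that reach 9.89% or 8.76% and so include the share of all genes. The lists were chosen with earlier results of these data known, so their shares are descriptions beside the 6.62% of all protein-coding genes. Among 100 neuronal channel, receptor and synapse genes 42 had H3K4me3 only (42%, 32.8 to 51.8), 21 had both marks and 37 had neither. Among 76 axon guidance and neural adhesion genes 28 had H3K4me3 only (36.8%, 26.9 to 48.1) and 26 had both. Among 70 developmental ligands and antagonists it was 24 (34.3%) against 23 with both. Among 100 developmental transcription factors of other tissues it was 32 (32%, 23.7 to 41.7) against 38 with both. Of the genes with H3K4me3, H3K27ac was thus missing at 66.7% in the neuronal list and at 45.7% in the developmental factor list, against 9.79% of all 13512 genes with H3K4me3. By this measure other lists were high too, on few genes: epithelial 38.5% of 26, erythroid and megakaryocyte 37.5% of 16, muscle 28.6% of 14 and lymphoid 20.8% of 24. Inducible genes (8.70%), haematopoietic factors (8.33%), germline genes (7.14%) and Polycomb genes (2.86%) were below the share of all genes.

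**Figure D4:**
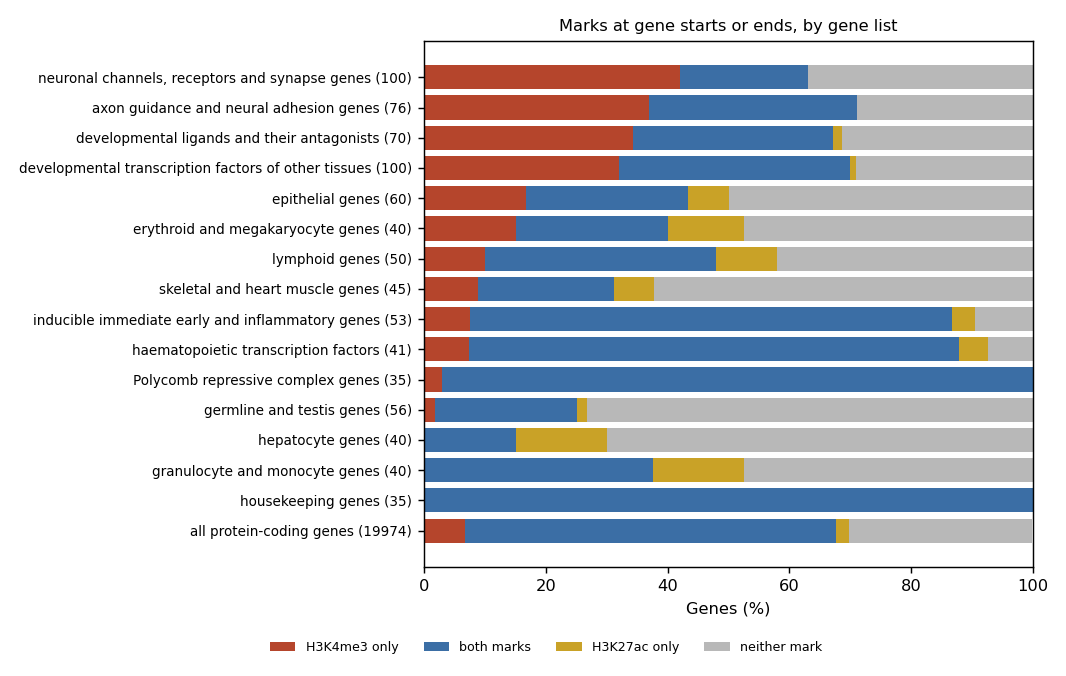
Share of genes (horizontal axis, percent) with H3K4me3 only, both marks, H3K27ac only or neither mark within 1 kb of a start or end, for 15 gene lists and for all protein-coding genes at the bottom; the number of genes is in brackets. H3K4me3 only takes 32% to 42% of the 4 uppermost lists, 6.62% of all genes and none of the housekeeping, hepatocyte or granulocyte and monocyte lists.

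Developmental transcription factors had a median fold of 19.0 at the genes with H3K4me3 only, and 24 of the 32 were at a fold of 10 or more. EMX1, a homeobox factor of the cerebral cortex, had a peak of fold 56.8 (chr2:72917161-72918979, 165 fragments, 141 to 192) with H3K27ac 28529 bp away. NR2F2, a nuclear receptor of veins and mesoderm, had 45.5 (132 fragments), and POU3F2, whose promoter is printed above, had 42.97 (149 fragments). BARHL2 had 41.6, ATOH1, a factor of cerebellar and inner ear cells, 39.0, and NKX2-1, of lung and thyroid, 29.8. The stem cell factor SOX2 was lower at 12.7, and the neurogenic NEUROD1 had 4.82. With both marks, FOXC1 had an H3K4me3 fold of 98.2 and an H3K27ac fold of 33.4, and NR2F1, a close relative of NR2F2, had 89.7 and 33.2.

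Among developmental ligands WNT4 had the highest fold of 62.3 (chr1:22141776-22143970, 184 fragments). INHBB, a subunit of activin B, had 55.4 (161 fragments), FGF18 had 45.2 and RSPO3, an amplifier of WNT signals, had 44.1 with H3K27ac 146210 bp away. The secreted WNT antagonists WIF1, DKK3 and SFRP5 had 38.7, 35.6 and 27.3, and BMP2 had 28.0. NODAL, WNT3A and IHH were weak, at 5.73, 5.47 and 5.13. The Notch ligands DLL1 (H3K4me3 fold 84.5, H3K27ac fold 12.4) and JAG1 (82.1 and 23.1) carried both marks.

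In the neuronal list the median fold of the 42 genes was 17.7, and 26 were at a fold of 10 or more. NLGN1, a synaptic adhesion protein, had a fold of 56.3 (chr3:173396987-173398481, 166 fragments, 142 to 193), and the nearest H3K27ac peak was 550716 bp away. The potassium channel genes KCND3, KCND2 and KCNC1 had 54.9, 46.5 and 43.8, and the calcium channel gene CACNA1D had 53.0. SLC17A7, the vesicular glutamate transporter, had 42.4, but this strongest peak overlapped H3K27ac outside the window and was no member. Another H3K4me3 peak at SLC17A7 was a strong member. Subunits of glutamate receptors spread widely, with GRIN1 at 36.9, GRIK2 at 33.2, GRIN2A at 7.53, GRIN2B at 6.50 and GRIA2 at 5.35. SLC32A1, the vesicular transporter of inhibitory neurons, had 12.3. Both marks were at KCNC4 (H3K4me3 fold 83.8, H3K27ac fold 31.3).

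Axon guidance genes had a median fold of 26.3 over the 28 with H3K4me3 only, and 22 of these were at a fold of 10 or more. NTNG1, a membrane-bound netrin, had a fold of 55.2 (163 fragments), SEMA5B, a semaphorin, 54.4 (189 fragments), and the secreted netrin NTN4 53.5 (164 fragments). CDH2, the N-cadherin gene, had 47.2 (137 fragments), with no H3K27ac within 1464382 bp. The Eph receptors EPHA6, EPHB1, EPHA7, EPHA4, EPHA2 and EPHA3 ran from 40.6 down to 13.6. The guidance ligand SLIT2 had 25.0 and its receptor ROBO2 had 3.89. The related receptor ROBO1 carried both marks (85.9 and 32.2), as did PLXNA1 (75.6 and 12.1).

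Lists of differentiated tissues had fewer such genes as a share of all genes listed. Of 60 epithelial genes 10 had H3K4me3 only (16.7%), led by DSP, the desmoplakin gene (55.8, 171 fragments), MARVELD3 (39.3), GRHL3, a factor of epidermal barrier formation (32.6), and OVOL2 (23.3), while OCLN had both marks (90.0 and 7.13). Of 45 muscle genes there were 4 (8.89%), of which RYR2, the cardiac calcium release channel, had a fold of 42.1 and TNNI3, CKM and RYR1 had 8.23, 6.16 and 4.48. Of 56 germline and testis genes BRDT alone had H3K4me3 only (4.79, 13 fragments). None of 40 hepatocyte genes did, and 28 of those had neither mark. In these lists lack of both marks was the most common state: 62.2% of the muscle and 73.2% of the germline and testis genes.

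Lists of blood genes held a few members. Of 40 erythroid and megakaryocyte genes 6 had H3K4me3 only (15%): SPTB (70.8), ITGB3, the platelet integrin (46.9), ANK1, the red cell ankyrin (46.1), HBM (29.8), GP1BB (20.2) and HBA1 (8.90). The value of HBA1 is uncertain, because HBA2 is nearly identical. EPB41, another red cell skeleton gene, had both marks (69.3 and 32.4), as did the embryonic globin gene HBZ (65.3 and 8.68). Of 50 lymphoid genes 5 did (10%): the T cell factors BCL11B (47.7) and TBX21 (32.5), CD8A (42.4), NCAM1 (41.4) and the kinase gene BLK (6.97). TCF7 and EBF1 had both marks, with H3K4me3 folds of 90.3 and 68.7. None of 40 granulocyte and monocyte genes had H3K4me3 only, 15 had both marks, 6 had H3K27ac only and 19 had neither.

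Among haematopoietic transcription factors 3 of 41 had H3K4me3 only (7.32%), close to the 6.62% of all genes. Among them were HLF, a stem cell factor (24.6), and IKZF3, a lymphoid Ikaros factor (12.4). GFI1 (88.1 and 43.4) and CEBPA (85.6 and 34.3) had both marks. Inducible genes were similar, with 4 of 53 (7.55%): EGR4 (64.0, 186 fragments), THBS1 (16.1), IL6 (9.91) and CXCL1 (4.01), while NFKBIA and VEGFA had both. All 35 housekeeping genes had both marks. Of 35 Polycomb complex genes 34 had both, EZH2 with folds of 85.7 and 49.9, and SCML1 had H3K4me3 only (6.16, 17 fragments).

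Starts with H3K4me3 only were rich in CpG. A start was placed in this class when no H3K27ac peak lay within 1 kb of it. Its H3K4me3 peak can thus overlap H3K27ac farther off and be no member. Genes with H3K4me3 only reached a fold of 88.95, whereas the highest fold of a member was 73.2. The CpG ratio, the observed CG count over that expected from C and G content, had a median of 0.786 (interquartile range 0.620 to 0.894) over 1382 protein-coding starts with H3K4me3 only. It was 0.841 (0.699 to 0.952) over 13291 starts with both marks, 0.255 over 536 with H3K27ac only and 0.293 over 6923 with neither. A ratio of at least 0.6 was reached by 77.0% of starts with H3K4me3 only, 83.7% with both marks, 10.3% with H3K27ac only and 22.1% with neither. Starts of long non-coding RNA genes gave a similar order, with medians of 0.731 over 534 starts with H3K4me3 only, 0.791 with both marks and 0.214 with neither.

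The order reversed among weaker peaks. At H3K4me3 folds of 10 to 20 the median CpG ratio was 0.741 over 261 starts with H3K4me3 only and 0.313 over 219 with both marks. At 5 to 10 it was 0.721 over 253 and 0.246 over 202. At 20 to 40 it was 0.818 over 421 and 0.729 over 840, and at 40 to 60 the medians were close, 0.838 over 300 and 0.830 over 3639. At 60 or more it was 0.768 over 51 starts with H3K4me3 only and 0.863 over 8317 with both. Members of such a fold numbered 31, and starts can share a peak or lie at one that is no member. Starts with both marks and a moderate H3K4me3 peak, such as SMIM33 and CD79A printed above, were thus mostly poor in CpG, whereas the medians of starts with H3K4me3 only lay between 0.654 and 0.838 in all bins. The bins compare starts of like fold but not of like depth of H3K27ac, and promoters of 1 gene share sequence.

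**Figure D5:**
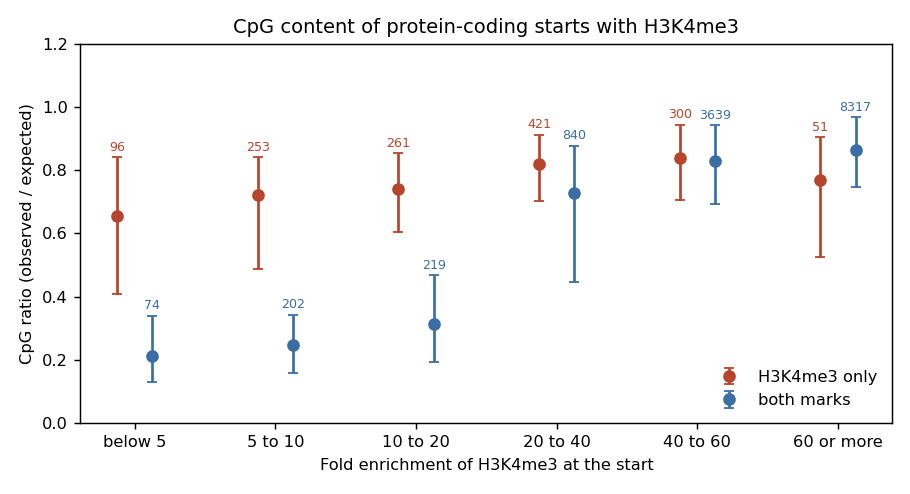
CpG ratio (vertical axis, observed over expected CG in 300 bases) of protein-coding starts by H3K4me3 fold enrichment (horizontal axis), for starts with H3K4me3 only and starts with both marks; points are medians, bars are interquartile ranges over starts, and numbers are starts. Below a fold of 20 the medians are 0.654 to 0.741 with H3K4me3 only and 0.210 to 0.313 with both marks, and from 40 to 60 they are 0.838 and 0.830.

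Short motifs were counted in the same 300 bases on both strands, by exact letters. CCGGAAG, the core bound by ETS factors, was in 3.84% of starts with H3K4me3 only (2.94 to 4.98), against 18.8% of starts with both marks (18.2 to 19.5) and 12.8% of all 22132 starts. Among CpG-rich starts, those with a ratio of at least 0.6, the shares were 4.42% and 21.0%, and among starts with folds of 20 to 60 they were 3.61% (26 of 721) and 18.3% (821 of 4479). GCGCATGCG, most of the palindrome bound by NRF1, was in 0.579% of starts with H3K4me3 only, 3.55% with both marks and 2.36% of all. The E-box CACGTG was in 6.15% with H3K4me3 only, against 10.1% with both, and the CCAAT box in 27.4% against 34.5%. TGACGTCA, the cAMP response element, was in 1.95% against 2.93%, with intervals that overlap. In narrower bins of fold, CCGGAAG was in 3.83% of starts with H3K4me3 only against 7.76% with both marks at 10 to 20, with intervals that overlap. It was in 4.51% with H3K4me3 only against 12.9% with both at 20 to 40, and in 2.33% against 19.6% at 40 to 60. In bins of CpG ratio it was in 1.71% with H3K4me3 only against 11.8% with both from 0.4 to 0.6, in 4.52% against 19.0% from 0.6 to 0.8 and in 4.05% against 22.1% from 0.8 to 1. The NRF1 letters rest on at most 4 starts with H3K4me3 only in any bin: they were in 0.475% of these against 2.86% with both at folds of 20 to 40, but in 1.14% (2 of 175) against 0.592% at CpG ratios from 0.4 to 0.6, with intervals that overlap there.

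Other letters did not follow that order. GGGCGG, the GC box of SP factors, was in 69.7% of starts with H3K4me3 only and 71.6% with both marks, with overlapping intervals. At folds of 20 to 60 it was more frequent with H3K4me3 only, in 76.7% (73.5 to 79.6) against 68.7% (67.3 to 70.1). TATAAA was in 7.74% and 5.12%, and at folds of 20 to 60 in 5.96% and 5.87%. TTCAGCACC, a stretch of the element bound by the neuronal repressor REST, was in 0.724% (10 of 1382) and 0.233% (31 of 13291), counts too small for a firm statement. The motifs may overlap each other, and a match is a run of letters and not a bound site. Neighbouring starts, of 1 gene or on opposite strands, can share bases, so 1 match can count more than once. The intervals of the motif shares take no account of this.

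The shape of the mark around the start differed too. At starts with H3K4me3 only the summit lay a median of 109 bp downstream (interquartile range −147.75 to 265.75), and at starts with both marks 233 bp downstream (98.5 to 400). The start itself was inside the peak in 72.9% of cases with H3K4me3 only and in 94.5% with both. The values of this paragraph were not matched on fold or width. The median fold was 22.6 at genes with H3K4me3 only and 64.7 at genes with both marks. How much lower or narrower peaks contribute to the difference in shape was not tested. A start on the opposite strand lay within 1 kb of 19.3% of starts with H3K4me3 only (17.3 to 21.5), 32.5% with both marks and 6.86% with neither. Genes with H3K4me3 only were longer, with a median record of 55.1 kb (interquartile range 14.6 to 166), against 29.7 kb with both marks (11.98 to 71.0) and 12.8 kb with neither.

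The expected background at members had a median of 4.29 on chromosome 8 and 3.11 on chromosome 15, against 2.08 to 2.49 on the other chromosomes. Folds on those 2 chromosomes are lower for the same number of fragments. Without them the share of H3K4me3 peaks that lacked H3K27ac was 16.1%, and 65.0% of strong members were at a gene end.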

How the data were processed

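Chromatin immunoprecipitation and sequencing gave 1 H3K4me3, 1 H3K27ac and 1 input library of KBM7 cells. The submitters' processing notes name Bowtie2 2.3.4, bedtools 2.20.1 and the build hg38. Which program called the peaks is not given there or in the labels. Each deposited peak list gives for every peak the authors' fold ratio at its summit, p-value and q-value as −log10, and a score that equals 10 times the −log10 q, rounded down. The authors' table of super-enhancers gives an H3K27ac and an input signal per region, and here only its positions were used.

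Peaks on chromosomes 1 to 22 and X were used, and sharing 1 bp counted as overlap. Fragments at a summit were recovered from the deposited fold and −log10 p as (fragments + 1)/(expected + 1) and a Poisson tail, within 0.01 on the −log10 scale. Read totals per library were not analysed here, so depth is known only through the fragments at summits. RefSeq gene records, starts, promoters and microRNAs are those of GRCh38.p14, and a peak was at a gene end within 1000 bp. Shares have 95% Wilson intervals and fragments exact Poisson intervals. Peaks, starts and genes are not replicates, so no p-value was computed.

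The members, the 15 gene lists (834 genes), the gene families and the alternatives were chosen with earlier results of these data known. Named genes are the 20 members of highest fold at protein-coding genes without H3K27ac at either end, and the 10 widest members. They also include the 5 highest outside and the 5 inside genes far from ends, up to 4 with H3K4me3 only and 2 with both marks per list, the members nearest the fold of 10 and nearest to H3K27ac, and the 5 highest at non-coding genes. Some genes that this rule names are not reported here. Further list genes, named for their known roles, were chosen after their values were seen. So were the requirement that a printed start lies inside its peak, the motifs, the families and the bins of fold and CpG ratio in which places and motifs were compared. Overlap, distance, interval and recovery code was tested on simulated data. The work used Python 3.11.15 with pandas 2.3.3, NumPy 2.4.6, SciPy 1.17.1 and Matplotlib 3.10.9. Alternatives were the minimum overlap, stricter peak lists, the fold split, the window around ends, the kind of gene, the leaving out of chromosomes 8 and 15, the ends used for a gene, and whether the H3K4me3 peak had itself to lack H3K27ac.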

Additional observations from a re-analysis of the deposited data

Results flagged for a closer look

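On sequences outside chromosomes 1 to 22 and X, which entered no comparison, 19 of 45 H3K4me3 peaks overlapped no H3K27ac peak. They lay on 12 sequences, 10 of them had a fold of 10 or more, and the highest fold was 47.6. They stand out only because they are signal in data that the comparisons leave out. Reads on such sequences can belong to repeated DNA, and which genes they mark was not examined.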

How the results depend on the processing

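No paired analysis was possible because each mark has 1 library, and for the same reason no library could be left out. The share of H3K4me3 peaks without H3K27ac was 16.2%. It was 21.7% when 50% of a peak had to be covered to count as shared, 11.96% when H3K27ac within 1000 bp counted as shared, 25.03% with H3K27ac peaks of −log10 q of at least 10 and 11.99% with such H3K4me3 peaks. The share of strong members, 31.8%, was 42.1%, 40.7%, 29.8% and 62.4% under these 4 settings in that order, 62.8% with the split at a fold of 5 and 17.8% at 20. Strong members at a gene end, 65.0%, came to 68.3% with the 50% rule, 62.6% with strict H3K27ac peaks, 60.4% and 69.9% with windows of 500 and 2000 bp, and 51.7% with protein-coding genes alone. Weak members at a gene end, 24.5%, came to 26.8% with the 1000 bp rule, 20.9% with strict H3K27ac and 35.3% with strict H3K4me3 peaks, 18.2% and 39.9% with the 2 windows, and 14.6% with protein-coding genes alone. Genes with H3K4me3 only, 6.62%, came to 11.5% with the 50% rule, 8.65% with strict H3K27ac and 5.75% with strict H3K4me3 peaks, and the median CpG ratio of 0.786 to 0.7997 with the 50% rule. What moved each of these values was not tested. Using both ends of every record (6.35%), requiring the peak itself to lack H3K27ac (6.51%) and leaving out chromosomes 8 and 15 moved these values by less than their intervals. The neuronal list stayed between 35% and 54%, axon guidance between 32.9% and 50%, ligands between 27.1% and 44.3%, and developmental factors between 28% and 39%, under all settings tried. With the 50% rule the neuronal, axon guidance and inducible lists left their intervals (54%, 50% and 22.6%), and with strict H3K4me3 peaks the germline and Polycomb lists went to 0. The housekeeping list stayed at 0 under all settings tried. The hepatocyte list and the granulocyte and monocyte list each reached 5% with the 50% rule, within their intervals. Strong members lay at a gene end in 65.0% of cases, against 74.4% of strong peaks with H3K27ac, but the order was reversed within folds of 10 to 20 (53.0% against 29.2%) and 20 to 40 (70.0% against 59.1%), bins chosen after seeing the data. Few fragments limit the weak members, and a fold compares peaks of 1 list only.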

Other observations

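Gene families also differed in their share of H3K4me3 only. The families were defined by symbol after values had been seen, so their shares are descriptions beside the 6.62% of all protein-coding genes. H3K4me3 only was at 7 of 14 ephrin receptor genes, 8 of 19 WNT ligand genes, 5 of 12 delta protocadherin genes and 33 of 95 potassium channel genes (34.7%, 25.9 to 44.7). Of 27 glutamate receptor genes it was at 9, and of 40 HOX genes at 9, where 19 had both marks. The potassium channel genes reached a fold of 54.9 with a median of 17.1, whereas the 8 collagen genes of 44 had a median of 7.01 and a highest fold of 17.6. Of 14 voltage-gated sodium channel genes none had H3K4me3 only (interval to 21.5%), 7 had both marks and 7 had neither.

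Some families held few members. Among 517 zinc finger genes named ZNF 10 had H3K4me3 only (1.93%) and 387 had both marks. Among 392 olfactory receptor genes 2 did (0.510%) and 384 had neither mark, and among 55 keratin genes none did and 53 had neither. None of 37 complex I, 95 cytosolic ribosomal protein or 50 proteasome genes had H3K4me3 only, and nearly all had both marks. A low share of H3K4me3 only thus occurred both in families with both marks nearly throughout and in families with neither. How much each family's shared sequence or clustered position contributes was not tested.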
